A study of Mus musculus with 4 samples.

Results

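The transcripts of 10 genes of the Notch pathway were followed across astrocyte cultures from 4 mouse brain regions: the ligands Dll1 and Jag1, the ligand-like protein Dner, the receptors Notch1, Notch2 and Notch3, the nuclear factor Rbpj, and the target genes Hes1, Hes5 and Hey1. They were chosen by name, and every probe set that the platform annotation assigns to just 1 of them was taken. This gave 17 of the 20380 single-gene probe sets, and 10 of 12393 genes. The cultures were primary astrocytes of CD-1 mice, an outbred stock, at postnatal day 3, from the subventricular zone (SVZ, the germinal layer beside the lateral ventricle), the ventral mesencephalon (VM, ventral midbrain), the olfactory bulb (OB) and the hippocampus. All were untreated monolayers kept in medium with 10% fetal serum after shaking to enrich astroglia. Tissue was pooled over littermates, of which the design text names 4 in one place and 3 in another. Each region was represented by 1 Affymetrix array, so no difference below has a replicate check, no test between regions was possible and no p-value was computed.

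Notch receptors are cell surface proteins that are cut after binding a Delta or Jagged ligand on a neighbouring cell. ADAM proteases and then the gamma-secretase complex release the intracellular domain, which joins the DNA-binding protein RBPJ and switches on repressors of the Hes and Hey families. In the developing brain this signalling is known for holding neural progenitors back from becoming neurons and for favouring glial fates.

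Differences between regions were read within a probe set, because probe sets differ in brightness for reasons other than transcript number. Signals are intensities on a linear scale. A floor of 122.1, the median over all probe sets and arrays, stood in for detection calls, and lower signals were raised to it before differences were taken. A fold against a signal at the floor is therefore a lower bound, given as "at least". A gene was counted as apart when its highest and lowest region differed by 2-fold or more, which is 1 on the log2 scale. It was counted as away from the rest when a region lay 2-fold or more above or below each of the other 3.

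Upstream sequence was available from RefSeq (GRCm38.p6) for 8 of the 10 genes. The 250 bases before the transcription start were searched on both strands for the RBPJ core TGGGAA, and for the N-box CACNAG, a site known to be bound by Hes repressors. The matches of the 2 motifs did not overlap. The core was found for 2 of the 8 genes, Rbpj and Hes5, against 21.6% of the 32841 promoters in the table. The N-box was found for 4 of the 8, Dner, Notch1, Notch2 and Notch3, against 36.7% of all promoters. Rbpj and Hes5 are shown because they hold the core, with capitals marking it on either strand. Dner and Notch1 are shown because they hold an N-box, marked in capitals, and differed between regions. Rbpj lies at chr5:53590096-53590345 (+), Hes5 at chr4:154960673-154960922 (+), Dner at chr1:84696222-84696471 (-) and Notch1 at chr2:26503823-26504072 (-).
Rbpj: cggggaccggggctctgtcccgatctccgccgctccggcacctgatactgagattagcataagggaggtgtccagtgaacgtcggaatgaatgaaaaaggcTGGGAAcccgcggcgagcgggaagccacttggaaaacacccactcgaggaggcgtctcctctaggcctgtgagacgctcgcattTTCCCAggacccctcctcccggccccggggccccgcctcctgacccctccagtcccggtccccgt
Hes5: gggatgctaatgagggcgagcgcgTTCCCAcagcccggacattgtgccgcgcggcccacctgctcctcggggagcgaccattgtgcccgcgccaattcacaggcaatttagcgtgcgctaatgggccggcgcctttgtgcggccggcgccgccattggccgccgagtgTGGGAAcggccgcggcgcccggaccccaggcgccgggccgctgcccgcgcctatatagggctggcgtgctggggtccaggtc
Dner: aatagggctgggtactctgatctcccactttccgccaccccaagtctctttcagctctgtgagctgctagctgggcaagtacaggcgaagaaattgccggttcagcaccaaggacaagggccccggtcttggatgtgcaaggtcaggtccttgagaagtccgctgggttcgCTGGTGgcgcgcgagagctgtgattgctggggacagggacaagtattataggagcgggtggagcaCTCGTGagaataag
Notch1: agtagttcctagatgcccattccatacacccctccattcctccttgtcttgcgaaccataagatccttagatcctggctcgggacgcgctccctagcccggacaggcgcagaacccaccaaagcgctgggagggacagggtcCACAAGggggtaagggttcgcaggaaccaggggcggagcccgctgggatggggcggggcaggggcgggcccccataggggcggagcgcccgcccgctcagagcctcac
In Hes5 the cores began 226 and 82 bases before the start, on opposite strands, and in Rbpj they began 149 and 65 bases before it. In all, 2.76% of promoters held 2 or more cores. A match describes these letters only and is no evidence of binding.

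Of the 10 genes, 6 were 2-fold or more apart between regions: Jag1, Dner, Notch1, Rbpj, Hes1 and Hey1. Over all 12393 genes the share was 20%, and it was 31% over the 7987 genes with a signal above the floor on any array. Notch2 and Notch3 were above the floor on all arrays but less than 2-fold apart, and Dll1 and Hes5 were below the floor on all of them. The 6 genes did not share a pattern. Notch1 and Hey1 were high in the SVZ and hippocampus, Jag1 was high in the OB and VM, Hes1 was low in the hippocampus, Dner was low in the VM and Rbpj was low in the SVZ. Away from the rest were 2 genes, Dner and Hes1, where 6.53% of all genes and 10.1% of those above the floor were. No gene was away upward in any region (0.823% of all genes in the SVZ, 1.01% in the VM, 1.2% in the OB and 1.61% in the hippocampus), or downward in the SVZ (0.654%) or OB (1%). At 1.5-fold, 7 of the 10 were apart, Notch3 being added, and 4 were away, against 38.2% and 16.7% of all genes.

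**Figure D1:**
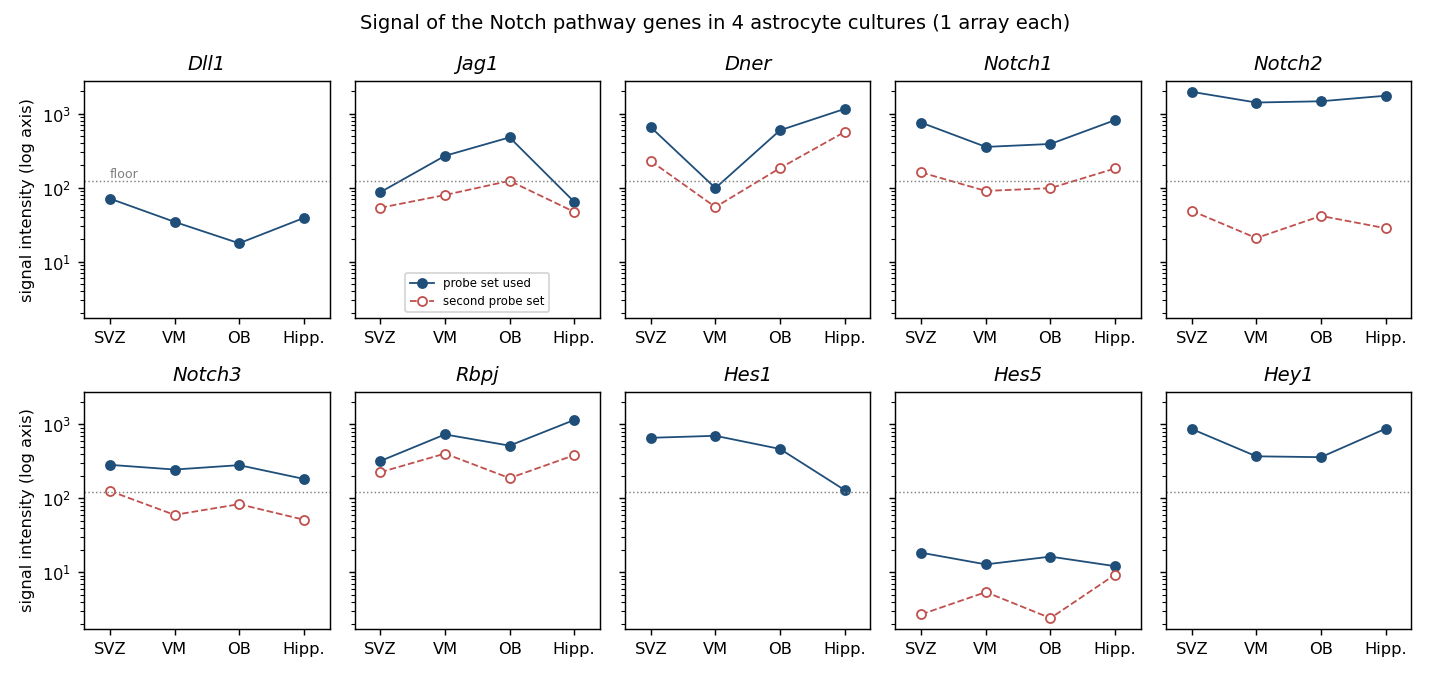
Signal intensity (log axis) of the 10 genes in the SVZ, VM, OB and hippocampus (Hipp.) cultures, 1 array each. Filled points are the probe set used, open points the second probe set where there is one, and the dotted line is the floor of 122.1; Dll1 and Hes5 stay below it on all arrays.

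Among the ligands, Dll1, a Delta ligand of neural progenitors, had signals of 71.1, 34.5, 17.7 and 38.9 in the SVZ, VM, OB and hippocampus. None was above the floor, so no order of the regions is given. With no floor and a pseudocount of 32 its log2 range was 1.05, the only change of call under that setting among the 10 genes. Jag1, a Jagged ligand made by glia, progenitors and vessel cells, read 479 in the OB and 269.7 in the VM, against 86.9 in the SVZ and 64.4 in the hippocampus. It was at least 3.92-fold higher in the OB, and at least 2.21-fold higher in the VM, than in either of the regions at the floor. The OB was 1.78-fold above the VM, which is short of 2-fold. The second Jag1 probe set put the OB and VM highest too but was above the floor in the OB only, and barely, with 123.7 in the OB and 79.6 in the VM, against 53.5 in the SVZ and 47.1 in the hippocampus. With that probe set, with the mean of both, or with a floor at the 70th percentile of signals, Jag1 was no longer 2-fold apart, at log2 ranges of 0.019, 0.996 and 0.41.

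Dner, a transmembrane EGF-repeat protein best known from neurons and reported to act as a Notch ligand, had the widest range of the 10 genes. Its signal was 98.8 in the VM, below the floor, against 657 in the SVZ, 598 in the OB and 1162 in the hippocampus. The VM was thus at least 4.90-fold below the next region, the OB. Of all genes, 0.363% were 2-fold or more below the other 3 regions there. The VM was at least 9.52-fold below the hippocampus. The hippocampus was 1.77-fold above the SVZ, and the SVZ and OB differed by 1.10-fold. The log2 range of 3.25 exceeded that of 98.3% of all genes and of 97.3% of those above the floor on any array. The second probe set kept the order of the regions, with 567 in the hippocampus, 229 in the SVZ, 184 in the OB and 54.7 in the VM. With it the hippocampus, and not the VM, was the region away from the rest. Without the VM array the log2 range of Dner was 0.96.

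The receptors varied less. Notch1, the receptor best known from neural progenitors, read 758 in the SVZ and 821 in the hippocampus, against 356 in the VM and 390.1 in the OB. The regions fell into a high and a low pair. The members of a pair differed by 1.08-fold for the hippocampus over the SVZ, and by 1.10-fold for the OB over the VM. The hippocampus was 2.30-fold above the VM and 2.10-fold above the OB, and the SVZ was 2.13-fold and 1.94-fold above the same regions. The second Notch1 probe set was dimmer and ordered the regions alike, with 182 in the hippocampus, 161 in the SVZ, 98.6 in the OB and 90.3 in the VM. Notch1 was no longer 2-fold apart by that probe set (log2 range 0.58, bounded by the floor) or by the mean of both (0.89).

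Notch2, a receptor expressed widely in glia and other cells, read 1979.9, 1418, 1475 and 1752 in the SVZ, VM, OB and hippocampus. Its regions spanned a log2 range of 0.48 that exceeded those of 55.3% of all genes. Many of these were at the floor on all arrays and so had a range of 0. Among genes above the floor on any array, 30.6% had a smaller range than Notch2. The second Notch2 probe set was below the floor on all arrays, at 20.8 to 48.7. Notch3, known from pericytes and smooth muscle as well as from astroglia, read 284, 246, 281 and 183 in the same order. The SVZ was 1.55-fold above the hippocampus, and the SVZ and OB were level (1.01-fold). The second Notch3 probe set was above the floor in the SVZ (126) only, with 59.8, 83.5 and 51.5 in the VM, OB and hippocampus. No region of Notch2 or Notch3 reached 2-fold against any other.

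Rbpj, which encodes the DNA-binding partner of all Notch receptors, read 1150 in the hippocampus, 733 in the VM, 517 in the OB and 320.3 in the SVZ. The hippocampus was 3.59-fold above the SVZ, but each step to the next region was under 2-fold (1.57, 1.42 and 1.61). The regions therefore formed a graded order with no region away from the rest. Its 2 probe sets, both above the floor on all arrays, did not give the same order. The second read 404 in the VM, 384 in the hippocampus, 226 in the SVZ and 188 in the OB, a 2.15-fold range. Both put the VM and hippocampus above the other pair, while the place of the SVZ and OB depended on the probe set. This order ran against that of Notch1 in the SVZ, where Notch1 was high and Rbpj, by the brighter probe set, lowest.

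**Figure D2:**
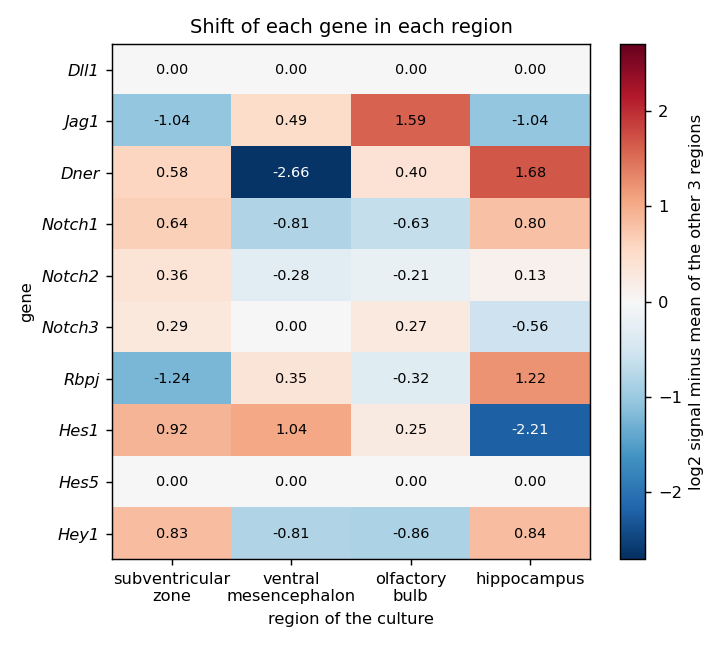
Log2 signal (floored) less its average over the other 3 regions, for each gene (rows) in each region (columns), 1 array per region. Red is higher and blue lower; Notch1 and Hey1 share a row pattern, Hes1 is lowest in the hippocampus (-2.21) and Dner in the VM (-2.66), and a value of 0.00 in a whole row means at the floor on all arrays.

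The target genes differed from each other. Hes1, a repressor that Notch signalling induces in progenitors and many other cells, read 129.7 in the hippocampus, against 660 in the SVZ, 702 in the VM and 466 in the OB. The hippocampus was 3.59-fold below the OB, its nearest region, and close to the floor. Of all genes, 0.315% were 2-fold or more below the other 3 regions there. Hes1 in the hippocampus was 5.41-fold below the VM and 5.09-fold below the SVZ, and the other 3 regions lay within 1.51-fold of each other. Hes1 has 1 probe set, so no second reading exists. With a floor at the 70th percentile, which hides the low hippocampal signal, its log2 range was 0.96, and without the hippocampus array it was 0.59.

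Hey1, a repressor of the related Hey family, read 868 in the SVZ and 874 in the hippocampus, against 371 in the VM and 361 in the OB. Within each pair the regions were level, at 1.01-fold for the hippocampus over the SVZ and 1.03-fold for the VM over the OB. Between pairs the folds were 2.34 and 2.41 for the SVZ over the VM and the OB, and 2.36 and 2.42 for the hippocampus over the same regions. Hey1 also has 1 probe set. Hes5, the Hes repressor most tied to Notch in neural stem cells, read 18.4, 12.8, 16.3 and 12.1 in the SVZ, VM, OB and hippocampus, and 9.3 or less by its second probe set. All 8 Hes5 signals were below the floor, which shows that the probe sets were dim and not that the transcript was absent.

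In the hippocampus the receptor Notch1 and the target Hey1 were thus at their highest signals while the target Hes1 was at its lowest. The hippocampus was only 1.08-fold above the SVZ for Notch1 and 1.01-fold for Hey1. That order turned round with the arrays scaled to equal medians. In the SVZ Notch1, Hey1 and Hes1 were all in the upper part of their ranges. In the VM Hes1 was at its highest signal while Notch1 was at its lowest, though each had another region within 1.10-fold. The likeness of patterns was measured as the root mean square difference of log2 signals, each gene centred on its mean over the 4 arrays. Notch1 and Hey1 were 0.11 apart, the smallest value among the 28 pairs of the 8 genes above the floor. The next was 0.33 between Notch2 and Notch3, and Hes1 lay 1.40 from Hey1 and 1.37 from Notch1. Dner and Hes1 were farthest apart, at 2.02. Disagreement between probe sets that read the same gene, over 1977 genes, came to a median-based SD of 0.16 (log2) per probe set and array. Such probe sets read the same RNA on the same array, so errors common to an array are left out. The value is thus not the full measurement error and is no direct scale for the distances above. It also says nothing of how much cultures of a region vary.

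Over the 6 pairs of regions, 20 of the 60 differences of the 10 genes were 2-fold or more. For the SVZ against the VM, 3 genes were higher (Dner, Notch1 and Hey1) and 2 lower (Jag1 and Rbpj), where 3.51% and 3.2% of all genes were. For the VM against the hippocampus, 2 were higher (Jag1 and Hes1) and 3 lower (Dner, Notch1 and Hey1), with 4.37% and 6.08% of all genes. For the OB against the hippocampus, 2 were higher (Jag1 and Hes1) and 3 lower (Notch1, Rbpj and Hey1), with 3.37% and 5.6% of all genes. The pairs that differed by fewer of the genes were the SVZ against the OB (Hey1 higher and Jag1 lower, 5.8% and 5.41%), the SVZ against the hippocampus (Hes1 higher and Rbpj lower, 3.19% and 4.21%) and the VM against the OB. In the last, Dner alone was lower (3.57% of all genes) and no gene was higher (4.16%). These pairs share arrays and are not independent of each other.

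As a group the 10 genes did not shift one way. Each gene's shift was its log2 signal in a region less its average over the other 3, and the median shift of the 10 genes was 0.32 in the SVZ, 0.00 in the VM, 0.00 in the OB and 0.063 in the hippocampus. Over all 12393 genes these medians were 0.00 in each region, with 4406 genes at the floor on all arrays and so at a shift of 0. Over the 7987 genes above the floor on any array they were -0.023, -0.063, -0.018 and 0.0070 in the SVZ, VM, OB and hippocampus. In the SVZ 6 of the 10 shifts were positive and 2, those of Jag1 and Rbpj, negative. Of all 12393 genes, 3776 were positive there and 4211 negative. The SVZ median was 0.030 with a floor at the 70th percentile, 0.00 with the second probe sets, and 0.15 and 0.16 without the VM and the hippocampus array.

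**Figure D3:**
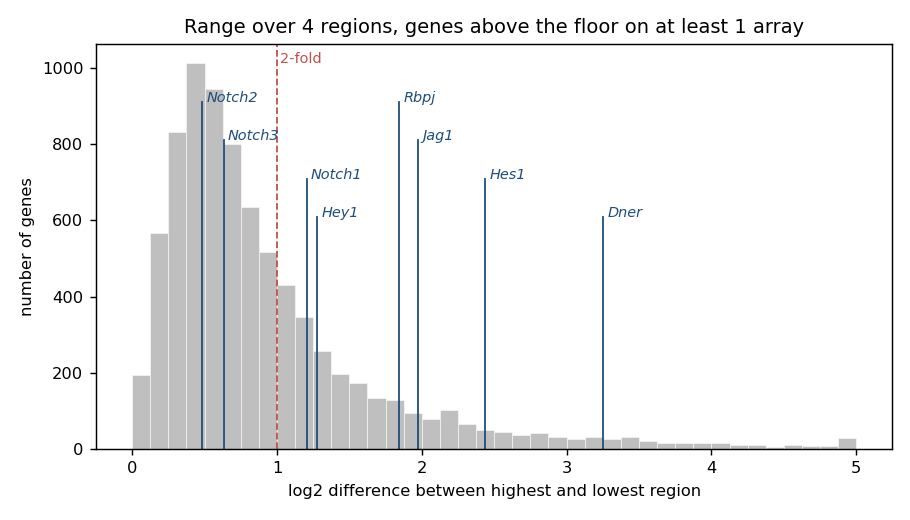
Number of genes (vertical axis) by the log2 difference between their highest and lowest region (horizontal axis), for the 7987 genes above the floor on any array; the last bar holds all larger differences. Blue lines mark the 8 Notch pathway genes above the floor, and the dashed line is 2-fold; Notch2 (0.48) and Notch3 (0.63) lie left of it, and Dner (3.25) farthest to the right.

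The genes nearest in pattern over the 4 arrays were looked up for the 6 genes that were apart. Nearest to Notch1 were Arhgap12 (root mean square difference 0.037) and Oplah (0.069), and nearest to Hey1 were Hacd2 (0.060) and Khdrbs3 (0.066), among 5977 genes above the floor on all arrays. Jag1 was nearest to Prickle1 (0.079) and Pdgfc (0.12), and Dner to Acsl6 (0.26) and Bdh1 (0.33), among 7885 genes above the floor on any array. Hes1 was nearest to Phlda3 (0.21) and Rnd3 (0.24), and Rbpj to Cd109 (0.18) and Col11a1 (0.20). With 4 points per gene, close matches are common, and the measure describes these arrays only.

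Other genes of the pathway were taken from a list of 63, of which 55 were measured by single-gene probe sets and 35 were above the floor on any array. Of all 12393 genes, 7987 were above it on any array. Of the 55, 13 (23.6%) were 2-fold or more apart, against 20% of all genes, and 4 were away from the rest, against 6.53% of all genes. All of these were among the 35 above the floor. Over all genes above the floor on any array, 31% were apart and 10.1% away. The remaining genes of the list were not analysed here.

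Few of the other ligands and receptors were above the floor. The ligands Dll3, Dll4 and Jag2 and the receptor Notch4 were below it on all arrays. The Delta-like protein Dlk2 was above it in the SVZ only (253), against 52.5 in the VM, 6.3 in the OB and 87.6 in the hippocampus, at least 2.07-fold higher. Contactin 1 (Cntn1), an adhesion protein reported to bind Notch, was above it in the hippocampus only (298), against 28.8 in the SVZ, 7.3 in the VM and 69.2 in the OB, at least 2.44-fold higher. Both second probe sets had the same highest region but were less than 2-fold above the floor. Dlk1 read 239 in the SVZ and 164 in the hippocampus, against 80.6 in the VM and 26.3 in the OB, at least 1.96-fold apart.

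The proteases that cut the receptors were above the floor everywhere, and 2 of 7 were apart, against 31% of all genes above the floor on any array. Adam17, which can make the outer cut, read 1046 in the hippocampus and 883 in the OB, against 476 in the VM and 379 in the SVZ. That is 2.76-fold from the hippocampus to the SVZ. Of its other probe sets, one had a log2 range of 1.68 with the OB highest, and one was above the floor in the hippocampus only (176) and not 2-fold apart (0.53). Adam10, the main outer-cut protease, stayed within 1.84-fold, with 1228 in the SVZ and 2022, 2264 and 1823 in the VM, OB and hippocampus. The gamma-secretase gene Psen2 read 569 in the hippocampus and 274 in the VM, with 385 and 448 in the SVZ and OB. The other subunits varied little, by 1.40-fold for Ncstn, 1.44-fold for Aph1a and 1.43-fold for Psenen.

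Among modifiers, the gene Lfng (lunatic fringe, a sugar transferase that tunes which ligand a Notch receptor answers) followed the order of Notch1. It read 309 in the SVZ and 384 in the hippocampus, against 137 in the VM and 157 in the OB, and lay 0.10 from Notch1 by root mean square difference. Its second probe set was below the floor on all arrays. Dtx1 (Deltex 1, a ubiquitin ligase that binds Notch) read 584 in the SVZ and 548 in the hippocampus, against 128 in the VM and 158 in the OB. Dtx1 has 1 probe set. Its 4.55-fold range was wider than that of Notch1 or Hey1, with the same regions high. With a floor at the 70th percentile this turned round, at log2 ranges of 0.70 for Dtx1, 1.19 for Notch1 and 1.28 for Hey1, and Lfng fell to 0.090, so that neither Dtx1 nor Lfng was then 2-fold apart. Fbxw7, which marks the intracellular domain for decay, read 592 in the SVZ, 503 in the VM, 271 in the OB and 333 in the hippocampus. By its second probe set Fbxw7 was not apart (log2 range 0.58). The endocytic regulators Numb and Numbl and the ligase gene Itch were within 1.47-fold, 1.42-fold and 1.31-fold.

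Of 13 nuclear cofactors, of which 11 were above the floor, 5 were apart, in different directions, against 20% of all genes and 31% of those above the floor on any array. Tle4, a Groucho corepressor that Hes proteins recruit, read 149.8 in the VM, against 438 in the SVZ, 529 in the OB and 609 in the hippocampus. It was, with Dner, low in the VM alone. Tle1, another Groucho gene, was highest in the OB (452), against 173 in the SVZ, 239.7 in the VM and 259.7 in the hippocampus. Its second probe set showed no such range (0.21 on the log2 scale). The coactivator Maml1 was highest in the OB too, at 954, with 386, 572 and 511 in the SVZ, VM and hippocampus, and had a log2 range of 0.90 by its second probe set. Spen, an RBPJ corepressor, was highest in the SVZ (612), against 338 in the VM, 265 in the OB and 190.3 in the hippocampus. Spen has 1 probe set. The acetyltransferase gene Kat2b read 1232 and 1536 in the SVZ and hippocampus, against 903 and 723 in the VM and OB. The second probe sets of Psen2, Kat2b and Tle4 were below the floor on all arrays, so these rest on a single reading. Snw1, Hdac1, Hdac2 and Kat2a were at most 1.32-fold apart.

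**Figure D4:**
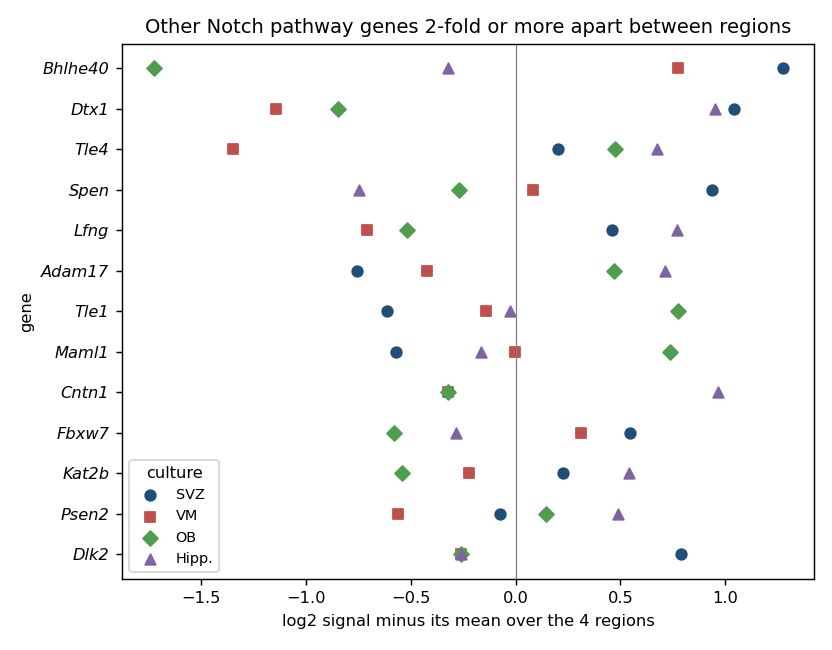
Log2 signal (floored) minus its mean over the 4 regions (horizontal axis) for the 13 other Notch pathway genes that were 2-fold or more apart, with 1 point per culture (Hipp., hippocampus). Dtx1 and Lfng have the SVZ and hippocampus on the right, and Bhlhe40 spans the widest range (3.00).

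The other targets and relatives were mostly dim. Of 9, 7 were below the floor on all arrays: Hes2, Hes3, Hes7, Hey2, Heyl, Nrarp and Bhlhe41. Of all 12393 genes, 4406 were at the floor on all arrays. Hes6, a family member that opposes Hes1, was level at 253, 258, 279 and 258 in the SVZ, VM, OB and hippocampus. Bhlhe40, a related repressor that also answers to stress and hormones, read 263 in the OB, against 2104 in the SVZ, 1487 in the VM and 695 in the hippocampus. Bhlhe40 has 1 probe set, so no second reading exists. Among genes that Hes proteins repress, Neurog1, Neurog2 and Atoh1 were below the floor on all arrays. Olig2, a progenitor and oligodendrocyte factor, read 244 in the SVZ and 241 in the hippocampus, against 16 and 7.5 in the VM and OB, just short of 2-fold apart against the floor.

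The 2% trimmed mean signal was 400.1 to 400.2 on the arrays, while the median signal was 136.8 in the hippocampus and 115.6 to 117.5 elsewhere. Scaling the arrays to equal medians would shift the hippocampus by -0.17 and the others by 0.049 to 0.073 on the log2 scale. Under it the 6 genes stayed 2-fold apart, but Notch1 in the hippocampus was less than 2-fold above the VM and OB, and Rbpj less than 2-fold above the OB. The SVZ then came above the hippocampus for Notch1 (0.12 on the log2 scale) and Hey1 (0.22). Of 11 astrocyte markers 10 were above the floor on any array, and Slc1a2, a glial glutamate transporter, was on none. Their summed signals were 23479, 14093, 24056 and 34539 in the SVZ, VM, OB and hippocampus, with 8, 8, 10 and 10 above the floor, and Aldh1l1 and Gjb6 ranged most widely. The list did not run one way. In the same order of regions Aldh1l1 read 5106, 1711, 311 and 1727, and Gjb6 read 13.6, 11.8, 1313 and 148. Bright genes weigh most in the sums, such as Gfap with 10027 in the hippocampus. Markers of other cells differed between the cultures, and several moved with the genes above. In bulk RNA, fewer cells of a type and less RNA per cell cannot be told apart. The 7 neural progenitor markers had median shifts of 1.35 in the SVZ and 1.59 in the hippocampus, against -0.69 in the VM and -2.41 in the OB. These are the regions in which Notch1, Hey1, Lfng and Dtx1 were high and low. The pattern was not particular to this list. The astrocyte markers Slc1a3 and Aqp4, and Olig1 and Foxj1, were also higher in the SVZ and hippocampus than in the VM and OB. Other astrocyte markers, such as Gja1 and Gjb6, were highest in the OB. The summed signals of the progenitor list were 27349, 9793, 4942 and 16164 in the SVZ, VM, OB and hippocampus, with 7, 6, 5 and 7 markers above the floor. The widest were Prom1 and Vcam1, and the progenitor factor Sox2 read 2512, 968, 348 and 2854. Not all of the list ran this way. Hopx was high in the OB and low in the SVZ, at 272, 283, 2300.2 and 2489 in the SVZ, VM, OB and hippocampus, and Vcam1 was lower in the hippocampus (1317) than in the VM (3210.5).

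The 8 fibroblast and meningeal markers were low in the SVZ (median shift -1.97), near the mean in the hippocampus (0.037) and high in the VM (1.13) and OB (1.22). These last are the regions in which Jag1 was above the floor. Their summed signals were 5902, 38146, 43770 and 18444 in the SVZ, VM, OB and hippocampus, with 5, 8, 8 and 8 markers above the floor. Col3a1 and Dcn ranged most widely. Not all of the list ran this way. Aldh1a2 was highest in the hippocampus, at 1206, against 847 in the VM and 618 in the OB. Lum read 1048 in the VM but 127.5 in the OB, below its 370 in the hippocampus. The other markers of the list were all higher in the VM and OB than in the SVZ and hippocampus. The 9 microglia markers summed to 301 and 201 in the SVZ and VM, with 1 and 0 above the floor, and to 24312 and 24367 in the OB and hippocampus, with 8 and 9. Lyz2 and Csf1r ranged most widely. The hippocampus, where Hes1 was low and Rbpj high, and the OB, where neither was at its extreme by the brighter probe sets, were alike in this list.

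Of 7 endothelial markers, 6 were below the floor on all arrays, including Pecam1 and Kdr, and Cdh5 was above it in the VM only (254.5). The endothelial sums were 125, 403, 234 and 228 in the SVZ, VM, OB and hippocampus. Among pericyte and smooth muscle markers, Myh11, Cspg4, Kcnj8 and Abcc9 were below the floor on all arrays, Rgs5 and Pdgfrb ranged most widely, and the summed signals were 18187, 19638, 18331 and 16307 in the SVZ, VM, OB and hippocampus. Of 9 neuron markers 6 were below the floor on all arrays, including Rbfox3, Snap25 and Syt1, and Stmn2 and Gad1 ranged most widely. The summed neuronal signals were 4320, 1472, 477 and 876. The oligodendrocyte list summed to 4151, 987, 928 and 3600.1, with Cspg4 and Mog below the floor on all arrays. Olig1 and Pdgfra ranged most widely and ran differently. Olig1 read 3805, 621, 171 and 2700 in the SVZ, VM, OB and hippocampus, and Pdgfra read 4.4, 74.2, 156 and 432. The ependymal pair Foxj1 and Dnah5 summed to 943, 328.5, 76.6 and 1934, with Foxj1 alone above the floor. The 4 ensheathing and Schwann markers summed to 83.4, 436, 1350.5 and 385, with Ngfr and Sox10 ranging most widely. The part of any of these cell types in the levels of the Notch pathway genes was not tested.

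**Figure D5:**
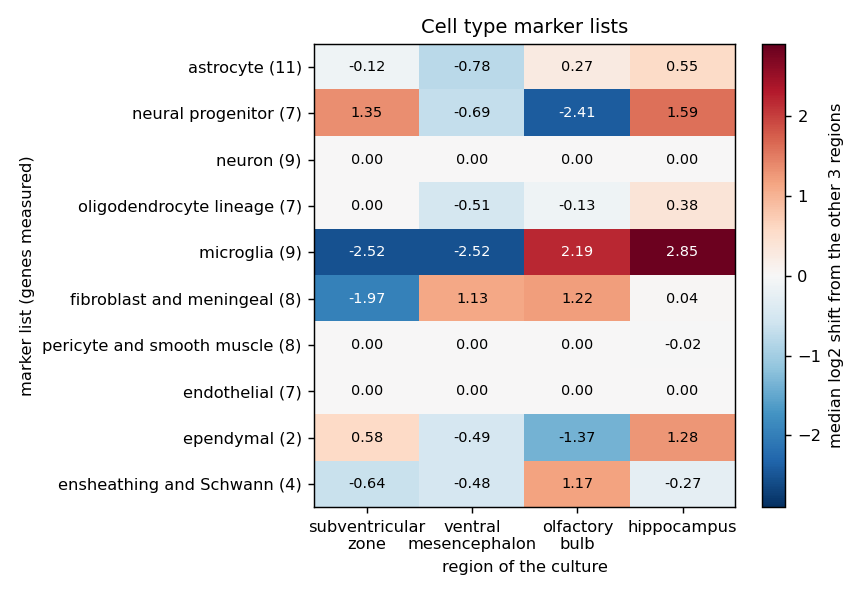
Median log2 shift of each cell type marker list (rows, with the number of genes measured) in each region (columns), 1 array per region. Neural progenitor markers are high in the SVZ (1.35) and hippocampus (1.59), fibroblast markers in the VM (1.13) and OB (1.22), and microglia markers in the OB (2.19) and hippocampus (2.85).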

How the data were processed

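RNA from 4 cultures, 1 per region, was hybridised to Affymetrix arrays. The authors deposited linear-scale intensity values of 22690 probe sets for each array, made with GCOS 1.4 per the submitters' processing notes. Neither algorithm nor scaling is given in the sources used here. The near-equal trimmed means would follow from global scaling. No detection calls were used. The depth of an array has no count, and the number of arrays limits the precision.

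Gene names came from the platform annotation: 20380 probe sets had 1 symbol, 691 several and 1555 none listed, beside 64 controls; 20351 matched RefSeq by gene identifier. Signals were floored at 122.1 and log2-transformed, and a gene was represented by its probe set of highest mean log2 signal. Fold rules were run on simulated data with shifts larger than 2-fold planted in genes well above the floor. That run does not check calls close to 2-fold, calls near the floor or variation between cultures. The 10 genes were all named; other pathway genes were named if 2-fold apart and otherwise to complete a count or complex, after their values were seen. Per rule, the 2 nearest genes in pattern and the 2 widest markers of a list were named, others after their values were seen. The members, lists and rules were chosen with earlier results of these data known. Alternatives covered the floor, the normalization, the probe set, the fold and each array left out. Python 3.11.15, numpy 2.4.6, pandas 2.3.3 and matplotlib 3.10.9 were used.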

Additional observations from a re-analysis of the deposited data

How the results depend on the processing

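Of 100 recomputed counts and medians, 74 were labelled close to the main value, 26 moved and 0 reversed. Counts, and the VM and OB medians of 0.00, have no sign that could reverse. The label close was loose. With the mean over probe sets it took in 4 in place of 6 genes apart, and 15 in place of 20 region differences. With a floor at the 70th percentile, 0 genes were away from all other regions (3.32% of all genes), 4 remained apart, Dner, Notch1, Rbpj and Hey1 (10.6% of all genes), 4 other pathway genes were apart and 0 away, 11 region differences passed 2-fold, and the median shift was 0.030 in the SVZ and -0.16 in the OB. With the mean over probe sets, 5 other pathway genes were apart and 1 away (15.9% and 5.02% of all genes). With second probe sets these were 4 and 1 (16.7% and 5.54%), with 12 region differences and an SVZ median of 0.00. At 1.5-fold, 4 of the 10 genes were away (16.7% of all genes), and 20 other pathway genes were apart and 8 away, by construction of the looser rule.

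Leaving out 1 array at a time gave 5 to 6 genes apart and 3 to 6 away, where 14.5% to 16.2% of all genes were apart and 9.32% to 10.4% away. It gave 8 to 11 other pathway genes apart and 4 to 7 away, and 8 to 12 region differences. The region differences then cover only pairs of the remaining regions, fewer than the 60 comparisons behind the main count of 20. Their drop, and their label of moved, follow from that and say nothing of stability. The median shifts then ran from 0.15 to 0.38 in the SVZ, -0.10 to 0.00 in the VM, -0.12 to 0.00 in the OB and 0.018 to 0.14 in the hippocampus. Fewer regions compared make it easier to be away from all others. The alternatives for region differences and for ranges of other pathway genes were added after seeing the data. Quantile normalization and scaling to equal medians kept the same 6 genes apart. Rbpj and Hey1 were 2-fold apart under each alternative run. Not every alternative could change these calls. Genes with 1 probe set, such as Hey1, keep it when the probe set is varied, and the 1.5-fold rule is looser. The cause of the other changes was not tested. No paired analysis was possible because each region has 1 array. Where the floor is set decided the call of Jag1 and Hes1, not apart with the higher floor, and of Dll1, apart (1.05) only with no floor, where 26.7% of all genes were apart.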
